A study of Homo sapiens with 6 samples.

Results

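The miRs described here come from one stretch of human chromosome 19. They are the primate-specific chromosome 19 miR cluster (C19MC) together with the miR-371 to miR-373 cluster that lies beside it. Members were all names in the count table with the numbers of these clusters (miR-371, miR-372, miR-373, miR-498, miR-512, miR-515 to miR-527, miR-1283 and miR-1323), with any letter or arm. This rule, which uses no measured value, took 70 of the 2588 miR names, 62 of them in C19MC and 8 in miR-371 to miR-373.

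Small RNA was sequenced from HEK293T, a human embryonic kidney cell line, with 3 libraries from cells depleted of RPL24 (RPL24 KD) and 3 from the negative control (NC). RPL24 KD cells received 50 nM of siPOOLs, mixtures of many siRNAs, against the ribosomal protein RPL24, and NC cells received non-targeting siPOOLs, and all were harvested 72 h later. The protocol in the labels adds a miR-608 plasmid to cells of both groups 48 h after the siPOOLs, while the study describes the sequencing as an RPL24 KD experiment of its own. In the count table miR-608 had 0 reads in each of the 6 libraries. The comparison asks whether loss of RPL24 changes mature miR levels. In each group 1 library is called unnumbered, because its number in the count table is not among those in the labels. That number is the same in both groups.

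C19MC is among the largest human miR clusters. It is found in primates only, lies in repeat-rich DNA and is imprinted, so that the paternal copy is the one transcribed, chiefly in the placenta. The neighbouring miR-371 to miR-373 cluster is active in human pluripotent stem cells and germ cell tumours. Many 3p arms of both clusters carry a seed of the AAGUGC type. They share it with the miR-302 3p arms of the stem cell cluster miR-302/miR-367 and, shifted by a base, with the widely expressed miR-17 family. The seed, bases 2 to 8 of the mature miR, is the part that mainly decides which mRNAs are bound.

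Mature sequences were found in RefSeq (GRCh38.p14) for 64 of the 70 names. The names without one were miR-498, miR-518f-3p, miR-520b, miR-520e, miR-522-3p and miR-527. The arms of the miR-371 to miR-373 hairpins, and miR-512-3p from the start of C19MC, are shown first because every read of the whole locus fell on 4 of them. Capitals mark the seed.
miR-372-3p: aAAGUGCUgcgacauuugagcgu
miR-373-3p: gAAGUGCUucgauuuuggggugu
miR-373-5p: aCUCAAAAugggggcgcuuucc
miR-512-3p: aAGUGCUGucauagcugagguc
miR-371a-3p: aAGUGCCGccaucuuuugagugu
miR-371a-5p: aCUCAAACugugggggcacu
miR-371b-3p: aAGUGCCCccacaguuugagugc
miR-371b-5p: aCUCAAAAgauggcggcacuuu
miR-372-5p: cCUCAAAUguggagcacuauucu

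C19MC names with 0 reads in every library are shown next, chosen because their seed is that of miR-372 (miR-520c-3p), close to it (miR-519a-3p) or that of the miR-17 family (miR-519d-3p and miR-526b-3p).
miR-520c-3p: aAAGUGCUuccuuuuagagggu
miR-519a-3p: aAAGUGCAuccuuuuagagugu
miR-519d-3p: cAAAGUGCcucccuuuagagug
miR-526b-3p: gAAAGUGCuuccuuuuagaggc

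Names outside the locus with the same seeds give the contrast. miR-302d-3p has the seed of miR-372-3p and miR-373-3p. miR-17-5p and miR-20a-5p have that of miR-519d-3p and miR-526b-3p.
miR-302d-3p: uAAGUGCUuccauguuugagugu
miR-17-5p: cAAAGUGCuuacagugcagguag
miR-20a-5p: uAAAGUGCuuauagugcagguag

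The 64 names with a sequence held 55 distinct mature sequences, between 18 and 25 nt long, and 35 distinct seeds. Several names cannot be told apart by their reads. The sequence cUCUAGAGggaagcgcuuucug belongs to 6 names (miR-518e-5p, miR-519a-5p, miR-519b-5p, miR-519c-5p, miR-522-5p and miR-523-5p), and cUCUAGAGggaagcacuuucug, at an edit distance of 1 from it, to 3 more (miR-518d-5p, miR-520c-5p and miR-526a). miR-517a-3p and miR-517b-3p share aUCGUGCAucccuuuagagugu, and miR-516a-3p and miR-516b-3p share uGCUUCCUuucagagggu. All of these names had 0 reads in each library. Each column of counts is headed Unique, a word that the sources do not explain. How reads that match several names were counted is not given. Whether the sharing touched these values, or set them to 0, therefore cannot be told. Near copies were common too, and 27 of the 64 names had a different member sequence within an edit distance of 2.

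The letters AAGUGC, read on the RNA strand as written, stood within the first 9 bases of 17 of the 64 members (26.6%), against 29 of the 2281 names in the whole table that have a RefSeq sequence (1.27%). The commonest seed among the members was UCUAGAG, in 10 names, all but miR-526a named as 5p arms. It was in no other name with a RefSeq sequence, and its 10 names had 0 reads.

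By mature name, 43 hairpins of the RefSeq table were matched to members, all on chromosome 19 of GRCh38. They do not cover every member, since miR-517a-3p, miR-520f-3p, miR-520f-5p and the 6 names without a sequence were matched to no hairpin. The 39 matched hairpins of C19MC span 95.8 kb, from 53666679 to 53762430, all on the plus strand. The 4 of miR-371 to miR-373 follow after 25.2 kb and span 1.10 kb, from 53787675 to 53788773. Of the 43, MIR371B alone is on the minus strand, opposite MIR371A. In the GENCODE 29 annotation 4 hairpins overlap an exon of a long non-coding RNA gene, MIR519A2 that of AC011453.1 on the same strand and MIR371A, MIR371B and MIR372 that of AC008753.3, which runs on the minus strand. The other 39 overlap no annotated gene apart from the miR genes.

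The libraries held between 398721 and 611745 counts, 1577125 in all for RPL24 KD and 1477128 for NC. RPL24 mRNA is not measured by small RNA libraries, so its depletion could not be checked in these counts, nor could mRNA markers of the cell line. The study reports RPL24 depletion in HEK293T cells by RT-qPCR and Western blot. It does not say whether the sequenced cells were among those measured. The libraries of a group differed from each other by more than counting noise. Over the names with reads in a pair, the chi-square per degree of freedom was 1.58 to 1.73 between RPL24 KD libraries and 5.09 to 8.62 between NC libraries, so the latter varied more. Nothing in the labels says that they came from separate cultures, so p-values measure the spread between these libraries only, which may be technical.

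The locus was almost silent in HEK293T cells of both groups. Of the 70 names, 66 had 0 reads in each of the 6 libraries, and the other 4 held 6 reads between them, out of 3054253 counts. Taken as a single sum, this is 1.96 CPM (counts scaled to a library total of 1000000), with an exact 95% Poisson interval from 0.721 to 4.28. The interval and all limits given here cover counting error only, since reads without molecular identifiers are not independent molecules. In bulk RNA, a rare cell with many copies and a low level in every cell cannot be told apart.

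Library by library, the summed count was 1 in RPL24 KD replicate 1, 2 in RPL24 KD replicate 2 and 1 in the unnumbered RPL24 KD library. It was 1 in NC replicate 1, 0 in NC replicate 2 and 1 in the unnumbered NC library. These are 1.79, 3.27 and 2.46 CPM after RPL24 KD and 1.77, 0 and 1.95 CPM in NC. The groups overlapped in reads, and each library's interval overlapped every other, as the plot of summed reads shows.

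The 4 reads of RPL24 KD against the 2 of NC give a ratio of 1.87 after correction for depth, with an exact 95% interval from 0.268 to 20.7. The RPL24 KD libraries averaged 2.51 ± 0.741 CPM (SD, n = 3). The NC libraries averaged 1.24 ± 1.08 CPM (SD, n = 3). A difference between the groups was not detectable at this depth, and the interval includes changes of several fold both ways. No p is given, since the sum is a score over the members.

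miR-372-3p had the most reads of the members. This miR of stem cells and germ cell tumours is known to repress the tumour suppressor LATS2. It had 1 read in RPL24 KD replicate 1, 1 in RPL24 KD replicate 2 and 0 in the unnumbered RPL24 KD library. In NC it had 1 read in replicate 1 and 0 in the other two. It was seen in both groups, never with more than 1 read in a library.

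miR-373-3p, its close relative from the next hairpin, had 1 read, in the unnumbered RPL24 KD library, and 0 in the other 5 libraries. miR-373-5p, the opposite arm of that hairpin, had 1 read, in RPL24 KD replicate 2, and 0 in the others. The arms of MIR373 were thus seen once each, in different libraries. miR-372-5p and all 4 arms named miR-371 (miR-371a-5p, miR-371a-3p, miR-371b-5p and miR-371b-3p) had 0 reads throughout.

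As a cluster, miR-371 to miR-373 had 4 reads in RPL24 KD and 1 in NC, a ratio of 3.75 with an exact 95% interval from 0.371 to 184.5. All 3 RPL24 KD libraries and 1 of the 3 NC libraries had a read of it, each with a count below the 3 that a count of 0 allows. MIR372 lies at chr19:53787890-53787956 and MIR373 at chr19:53788705-53788773, both on the plus strand.

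C19MC itself was seen through a single read, of miR-512-3p in the unnumbered NC library. miR-512-3p is made from a pair of hairpins, MIR512-1 (chr19:53666679-53666762) and MIR512-2 (chr19:53669157-53669254), the first of the matched hairpins in genome order. Which of the hairpins gave the read cannot be told, since both give the same mature sequence. The opposite arm, miR-512-5p, had 0 reads.

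The other 61 names of C19MC had 0 reads in each library. Among them were miRs that are abundant in placenta and used as its markers, such as miR-517a-3p, miR-517c-3p, miR-519d-3p, miR-515-5p, miR-516b-5p, miR-518b, miR-520g-3p, miR-525-5p, miR-526b-5p and miR-1323. A count of 0 in a library was taken to allow up to 3 counts, which is between 4.90 and 7.52 CPM. The exact 95% interval is wider, and for the summed 0 of NC replicate 2 it reaches 3.69 counts or 9.25 CPM. On the limit of 3 counts, 0 reads over a group allow up to 1.90 CPM in RPL24 KD and 2.03 CPM in NC. Over the 6 libraries they allow up to 0.982 CPM. The 62 names of C19MC together had 0 reads in RPL24 KD and 1 in NC, and no fold change can be given for counts this low.

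By arm, 3 of the 31 names that end in 3p had reads, 1 of the 29 that end in 5p and 0 of the 10 without an arm. Names seen in a single library made up 3 of the 4 with reads, and none was seen in more than 3 libraries. Of all 1205 names with reads, 252 were seen in a single library and 561 in all 6.

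The detected members stood at the low end of the table. A total of 1 read was held by 223 names, of 2 reads by 121 and of 3 reads by 83, while 778 had more. miR-372-3p, at 3, was the highest member, so that 0 of the 70 names were among those 778.

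**Figure D1:**
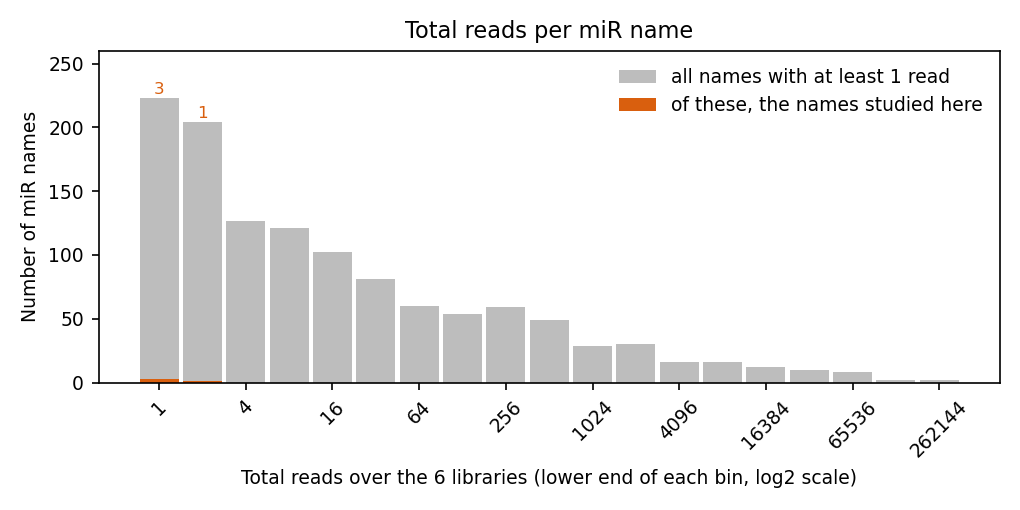
Number of miR names by total reads over the 6 libraries, in bins that double in width, each labelled by its lower end. Grey bars are all 1205 names with at least 1 read and the orange part, with its number, the members. The members lie in the first bins only, with 3 names at 1 read and 1 at 3 reads.

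The share of names with reads was 5.71% in the locus (4 of 70) and 46.6% in the table as a whole (1205 of 2588). In single libraries between 0 and 2 members had reads, while between 758 and 856 of all names did. Within the locus the share was 3 of 8 for miR-371 to miR-373 and 1 of 62 for C19MC. These shares describe names, which share sequences, hairpins and libraries.

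Other miRs of chromosome 19 were measured in the same libraries. Of the 135 other names with a RefSeq locus on this chromosome, 63 had reads (46.7%), led by miR-7-5p, which is also made from hairpins on other chromosomes, with a total of 225766, and miR-99b-5p with 28855. The nearest hairpin after the locus, MIR935 at 193.5 kb, gave 160 reads. Before it, MIR643 at 1385 kb gave 16, and MIR125A and MIRLET7E, at 1973 and 1974 kb, gave 9851 and 8326. Other near hairpins were as low as the members, with 0 reads for MIR6801 before the locus and 1 and 2 for MIR6804 and MIR6802 after it.

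The 14q32 cluster on chromosome 14, imprinted and placental like C19MC but expressed from the maternal copy, was compared as a further large cluster, chosen after its values were seen. Of its 92 names, 36 had reads, 183 in all, with miR-127-3p highest at 35. It too was low, and 5 of its names had a total of at least 10 reads, against 0 of the 70 members.

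The names numbered miR-302 or miR-367 include the stem cell cluster, whose miR-302 3p arms have the seed of miR-372-3p. They also include miR-302e and miR-302f, whose genes lie elsewhere. All these names were as near to 0 as the members. Of these 12 names, miR-302a-5p had 1 read, in the unnumbered NC library, and miR-302d-3p 1 read, in NC replicate 2. The other 10 names were at 0 in every library. The summed count of the 12 names was 0 in RPL24 KD and 2 in NC, the reverse order of miR-371 to miR-373, with both groups at or under the 3 counts that 0 allows.

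The seed AAAGUGC, by contrast, was abundant through the miR-17 family, which drives proliferation in many cell types. Its 6 names (miR-17-5p, miR-20a-5p, miR-20b-5p, miR-93-5p, miR-106a-5p and miR-106b-5p) took between 5.27% and 7.60% of the counts of a library. They held 183958 reads in all, and miR-519d-3p and miR-526b-3p, the C19MC names with the same seed, held 0. Of all 183981 reads on names with AAGUGC in the first 9 bases, 5 fell on members.

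Edit distances between members and other miRs were taken over the whole mature sequence, seed included. miR-519d-3p was at an edit distance of 8 from miR-17-5p, its nearest in the miR-17 family, and miR-526b-3p at 10 from miR-106a-5p. miR-372-3p was at 8 from miR-106b-5p. The lowest distance of any member from a name with reads outside the locus was 5, to miR-302d-3p with its 1 read. miR-512-3p was at 6 from miR-148b-5p, which had 361 reads, and at 8 from its nearest member, miR-371a-3p. Whether any of the 6 reads came from another miR was not tested.

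All miRs were compared between RPL24 KD and NC in one edgeR quasi-likelihood fit, and those with a Benjamini-Hochberg adjusted p under 0.05 are called differentially expressed (DE). Of the 70 members, 66 had no reads to test. The filter on low counts, with a minimum count of 10, removed the other 4, so that 0 were tested. Of the 360 miRs that passed, 21 were DE (5.83%), 11 higher and 10 lower after RPL24 KD. Without the filter, 4 members were tested and 0 were DE, with 0 at an unadjusted p under 0.05 both in edgeR and in DESeq2. In that edgeR fit 30 of 1205 miRs were DE (2.49%). The adjusted p from edgeR without the filter was 0.866 for miR-372-3p and 0.715 for miR-373-3p, miR-373-5p and miR-512-3p. Counts of 1 to 3 reads leave such a test little to work with, and the p-values do not show that the groups were alike.

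The abundant miR-17 family, which has the seed of miR-519d-3p and miR-526b-3p but not of the detected members, could be tested. None of the 6 miR-17 family names was DE, with adjusted p-values by edgeR's quasi-likelihood test from 0.249 to 0.917. For miR-17-5p the RPL24 KD libraries lay at 18817, 18577 and 19081 normalized CPM and the NC libraries at 18786, 17681 and 24232. The groups overlapped, and the log2 fold change was -0.10 with a standard error of 0.0914, from -0.16 to 0.05 when each library in turn was left out. miR-106a-5p had the lowest p of them, with 422, 404 and 494 normalized CPM after RPL24 KD and 366, 300.0 and 423 in NC. Its log2 fold change was 0.27 (standard error 0.129), from 0.18 to 0.39 when each library in turn was left out. It was DE in 0 of these fits, and the groups overlapped. The ranges of the other family names took in both signs.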

How the data were processed

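Small RNA libraries of HEK293T cells, 3 per group, were analysed. The authors used FastQC and Flexbar for quality control and trimming, assigned reads to miRBase miRs with miRExpress and deposited raw read counts per mature miR and library, without normalization. How they counted reads that match several miRs is not given in the sources used here. Their own test was DESeq2.

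Members and lists were chosen with earlier results of these data known. CPM are counts scaled to a library total of 1000000, and normalized CPM use TMM library sizes. Tests used edgeR 4.0.16 in R 4.3.3 (quasi-likelihood, default settings, no replicate block, TMM, filterByExpr), with DESeq2 1.42.0 as an alternative. The code was also run on simulated counts with the same spread in both groups, which the libraries here did not have. That run does not show how the tests perform on these counts. Intervals are exact at 95%. The libraries held 398721 to 611745 counts, so that 3 counts are 4.90 to 7.52 CPM. Sequences, hairpins and neighbours came from RefSeq (GRCh38.p14), overlaps from GENCODE 29. The 14q32 names were those with a RefSeq locus on chromosome 14 between 100800000 and 101100000. Every member with a read and all miR-371-373 arms were named; other members and chromosome 19 neighbours were named after their values were seen. No column of counts was left out.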

Additional observations from a re-analysis of the deposited data

How the results depend on the processing

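Every edgeR fit with the filter on low counts, the replicate block included, tested 0 members, and DESeq2 gave 0 members an adjusted p, so that 0 DE members there is no sign of stability. In the fits without the filter, where members were tested, 0 were DE. The number of members with a read, 4, became 0 when at least 3 reads in a library were asked for, and was 3 or 4 without one library. The summed level, 1.27 CPM higher in RPL24 KD than in NC, became -0.65 for C19MC alone, was 1.92 for miR-371 to miR-373 alone and 0.715 without miR-372-3p, and ranged from 0.647 to 1.62 without one library.

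The 21 DE miRs of the whole table became 32 with total counts and 51 with the replicate block, and ranged from 5 to 32 without one library: 6 without RPL24 KD replicate 1, 5 without RPL24 KD replicate 2, 12 without the unnumbered RPL24 KD library, 26 without NC replicate 1, 18 without NC replicate 2 and 32 without the unnumbered NC library. They were 15 with DESeq2, and 18 with the newer quasi-dispersion of edgeR, a setting added after seeing the data. The replicate block used the 4 numbered libraries, which gave 28 without it, and called miR-20a-5p and miR-93-5p, with all 6 miR-17 family names higher after RPL24 KD, against 3 of 6 in the fit without the block on all 6 libraries. Deviations of same-numbered libraries correlated at -0.14 and 0.12 over 360 miRs. The unnumbered libraries, which share a number in the count table, were left out of the block and of these correlations. They did enter the group means from which the deviations were taken. The correlations therefore do not decide whether a shared number pairs the libraries. Why the number of DE miRs changed was not tested.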
